A study of Homo sapiens with 13 samples.

Results

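The regions described here are places where a PTBP1 peak and a RUNX1 peak overlapped at the start of a protein-coding gene, outside close head-to-head coding pairs. They were chosen by the called peaks themselves. PTBP1 and RUNX1 peaks overlapping by at least 1 base were merged, regions with peaks of both proteins within 1 kb of a protein-coding transcription start site (TSS) were kept, and regions within 1 kb of both TSSs of a head-to-head coding pair at most 1000 bases apart were dropped. This left 2565 regions, 20.7% of the 12367 merged regions and 56.4% of the 4550 shared ones, and 294 shared regions at divergent coding promoters were set aside. The chosen regions lay at 2885 of the 20033 annotated protein-coding genes, or 14.4%. The peaks came from MOLM-13, a human cell line established from an acute myeloid leukemia, with no treatment or genetic change named in the labels. The series held 13 libraries made by CUT&Tag, where a transposase is brought to the bound protein by an antibody, or by CUT&RUN, where a nuclease is. PTBP1 and RUNX1 each had 2 biological replicates in both assays, H3K27me3 and IgG had 2 in CUT&RUN, and IgG had 1 in CUT&Tag. A single peak list per protein was analysed, so no value has a spread between replicates and each interval covers counting error only.

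RUNX1 binds DNA through its Runt domain, with CBFB as its partner, and directs blood cell development. It acts with histone acetyltransferases as a coactivator and with the TLE and SIN3A complexes as a corepressor. PTBP1 is an RNA-binding protein that regulates splicing through pyrimidine-rich sequence and has no known DNA-binding domain. Where the coding genes of a region lie on 1 strand, the region has a direction in which positions and strands can be read. The rule kept 222 members with coding genes on both strands, and these were left out of the readings by direction.

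Examples of the DNA under strong summits were taken with and without the RUNX motif. The RUNX motif was searched as TGTGGT or TGCGGT on both strands, within 50 bases either side of a summit. The first set holds RUNX1 summits from the members of highest RUNX1 fold enrichment that had this motif in a window overlapping no annotated exon. The RUNX motif is in capitals, hg38 windows are given, and each sequence is written 5′ to 3′ on the strand of its gene. The windows are chr11:130069713-130069813 (plus strand) for APLP2, a relative of the amyloid precursor protein, chr19:45792917-45793017 (minus strand) for DMWD, chr17:39953069-39953169 (plus strand) for GSDMA, a pore-forming gasdermin, chr11:82900544-82900644 (plus strand) for DDIAS and chr1:114780772-114780872 (minus strand) for SIKE1, a suppressor of the kinase IKBKE.
APLP2: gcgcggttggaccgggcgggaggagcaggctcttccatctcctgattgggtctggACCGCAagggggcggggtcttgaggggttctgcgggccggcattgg
DMWD: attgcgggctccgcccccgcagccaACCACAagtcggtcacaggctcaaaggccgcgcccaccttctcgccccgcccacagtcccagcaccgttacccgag
GSDMA: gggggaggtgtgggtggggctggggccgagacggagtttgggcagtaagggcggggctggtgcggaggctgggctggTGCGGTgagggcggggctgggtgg
DDIAS: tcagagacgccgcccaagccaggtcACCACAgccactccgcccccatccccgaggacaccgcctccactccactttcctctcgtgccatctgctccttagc
SIKE1: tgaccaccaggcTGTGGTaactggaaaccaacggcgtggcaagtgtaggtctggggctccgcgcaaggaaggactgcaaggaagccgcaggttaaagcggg

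The second set holds PTBP1 summits from members of the highest PTBP1 fold enrichment, chosen for having no RUNX motif at either summit and no overlap with an annotated exon. Capitals mark the GC box, GGGCGG on either strand, which SP family factors bind, or the CCAAT box, which NFY binds. The windows are chr14:104752838-104752938 (plus strand) for SIVA1, a pro-apoptotic adaptor, chr9:136791002-136791102 (plus strand) for TMEM141, chr19:42268778-42268878 (plus strand) for the transcriptional repressor CIC and chrX:1453127-1453227 (minus strand) for ASMTL.
SIVA1: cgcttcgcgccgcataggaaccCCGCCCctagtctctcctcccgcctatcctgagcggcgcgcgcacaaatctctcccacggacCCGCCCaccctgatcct
TMEM141: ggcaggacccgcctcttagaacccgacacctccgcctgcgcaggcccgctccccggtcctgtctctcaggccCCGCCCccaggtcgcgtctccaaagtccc
CIC: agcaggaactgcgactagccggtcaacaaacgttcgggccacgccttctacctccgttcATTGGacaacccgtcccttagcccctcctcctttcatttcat
ASMTL: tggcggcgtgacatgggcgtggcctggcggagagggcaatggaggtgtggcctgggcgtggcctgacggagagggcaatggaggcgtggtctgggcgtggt

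The SIVA1 window held 2 GC boxes, the TMEM141 window 1 and the CIC window a CCAAT box instead. The ASMTL window, which lies in the pseudoautosomal region, held neither letter string. The RUNX1 windows were GC-rich as well, from 60.4% at SIKE1 to 75.2% at GSDMA, and those of APLP2, DMWD, GSDMA and DDIAS each held 2 GC boxes beside the RUNX motif. Over all members the median GC content within 50 bases of the summit was 68.3% under PTBP1 and 69.3% under RUNX1, with a median of 9 CpG dinucleotides under each.

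Most members were single, compact regions with 1 gene. Of the 2565, 2239 had 1 coding gene within 1 kb, 313 had 2 and 13 had 3, and 2503 held exactly 1 peak of each protein. The region width had a median of 1051 bases (quartiles 765 and 1499), and ranged from 320 bases to 17892 bases at ABCA2, a lipid transporter of the ABC family. The PTBP1 and RUNX1 summits of a region were a median of 79 bases apart (quartiles 23 and 176). They lay within 50 bases of each other in 952 regions, 37.1%, and on the same base in 167.

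The rule used the calls, so fold enrichment is given as a description and was not tested. Fold enrichment is the fragment pileup at a summit over the local background, as the authors' peak caller gave it. The PTBP1 peak of a member had a median fold enrichment of 18.6 (quartiles 12.8 and 29.1) and the RUNX1 peak 17.3 (quartiles 12.03 and 27.1). These values rest on a median of 33 PTBP1 fragments and 23 RUNX1 fragments at the summit. At divergent promoters the medians were 21.5 and 17.3. PTBP1-only regions at non-divergent coding promoters, of which there were 1481, had a median of 11.05, and the 671 RUNX1-only regions there had 10.5.

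Across the 2565 regions the log2 fold enrichments of both proteins had a Pearson r of 0.58 and the fold enrichments a Spearman correlation of 0.53. Both peaks of a region share its base composition, mappability and local background, and no p-value is given. Of the 256 regions with the highest fold enrichment for each protein, 107 were the same, 41.8% of each group.

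**Figure D1:**
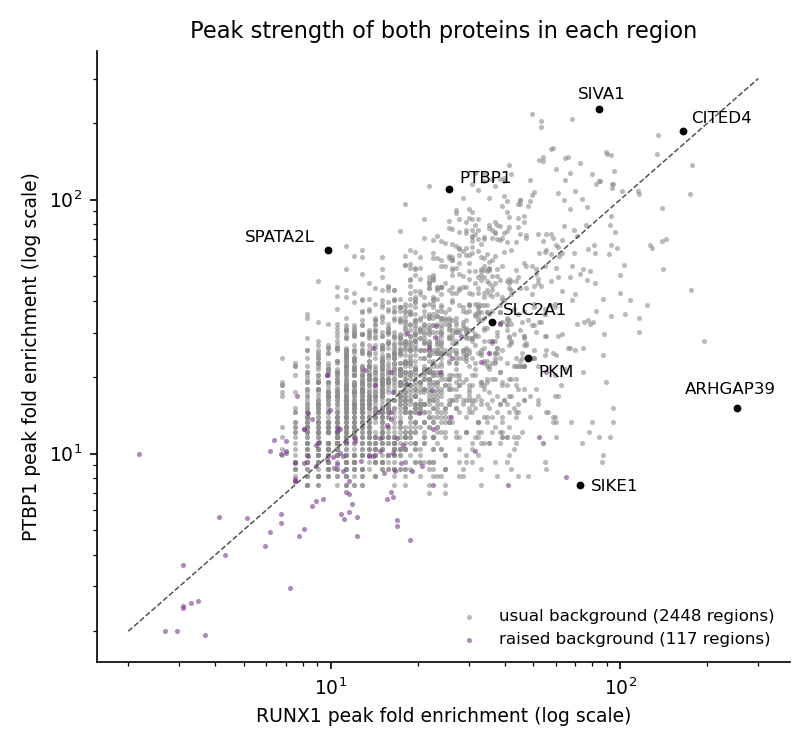
RUNX1 peak fold enrichment (x axis, log scale) against PTBP1 peak fold enrichment (y axis, log scale), 1 point per region; the dashed line marks equal values and purple points are the 117 regions on a raised background. PTBP1 and SPATA2L lie above the line and ARHGAP39 and SIKE1 below it, while CITED4 is near the line at the top of both scales.

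The strongest PTBP1 peaks among the members were at genes of varied function. SIVA1 had a PTBP1 fold enrichment of 226.7 and a RUNX1 fold enrichment of 84.2, with both summits 259 bases upstream of the gene. TMEM141 followed with 217 for PTBP1 and 49.6 for RUNX1, CIC with 208 and 68.4, ASMTL with 205 and 53.4 and ATP8B3, a phospholipid-transporting ATPase, with 193 and 53.4. CITED4, a transcriptional coregulator that binds CBP and p300, had 186 for PTBP1 and 164.7 for RUNX1, and was the only region among the 10 strongest of both proteins. The remaining 4 of the 10 strongest PTBP1 peaks were at KDM4A, a histone demethylase, at ZMPSTE24, the protease that matures lamin A, at HNRNPL, a splicing regulator, and at FBRS, with PTBP1 fold enrichments of 180, 160, 159 and 155.

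The strongest RUNX1 peak among the members was at ARHGAP39, a GTPase-activating protein, with a RUNX1 fold enrichment of 254 against 15.1 for PTBP1. Its PTBP1 and RUNX1 summits were at -1902 and -1890 bases from the 5′ end of the gene. NUDT7, a peroxisomal coenzyme A hydrolase, had 195 for RUNX1 and 27.9 for PTBP1. MTMR4, a lipid phosphatase, had 177 and 137, and MPC1, a subunit of the mitochondrial pyruvate carrier, had 176 and 44.2. RRM2B, the p53-inducible ribonucleotide reductase subunit, had 174 for RUNX1 and 106 for PTBP1. After CITED4 came, among others, CDK19, a Mediator kinase, at 144, the transcription factor BHLHE40 at 140 and RIMOC1 at 139. A RUNX motif lay within 50 bases of the RUNX1 summit at 2 of the 10 regions of highest RUNX1 fold enrichment, ARHGAP39 and MTMR4. Over all members the share was 11.4%.

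The balance between the proteins differed most at 2 small groups of regions. Regions whose strongest peaks lay on a raised background were left out of this ranking. The lowest log2 ratios of PTBP1 to RUNX1 fold enrichment were then at ARHGAP39 (-4.07), SIKE1 (-3.27), C9orf72 (-3.22), BPI (-3.14) and DMWD (-2.99). BPI encodes a bactericidal protein of neutrophil granules. A RUNX motif lay at the RUNX1 summit of all of these except BPI. With every region ranked, MYL12A (-3.01), on a raised background and without the motif, comes before DMWD. The highest ratios were at SPATA2L (2.70), FBXL19 (2.54), U2AF2 (2.41), POLM (2.40) and SLC25A6 (2.37). None of these 5 had a RUNX motif at the RUNX1 summit, but over all members only 11.4% had one there. Its absence from 5 regions therefore says little. At the PTBP1 summit the motif lay in FBXL19 and, of the lowest ratios, in ARHGAP39 and C9orf72. U2AF2 recognises the polypyrimidine tract at 3′ splice sites, POLM is a DNA repair polymerase and SLC25A6 an adenine nucleotide carrier in the pseudoautosomal region. The lists were not scaled to each other, so a ratio orders regions and is no measure of how much of each protein was bound.

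The position of the summits was read along the direction of transcription in the 2343 members whose coding genes lay on 1 strand. Against the 5′ end of the gene, the PTBP1 summit had a median position of -3 bases (quartiles -162 and 241.5) and the RUNX1 summit of 7 bases (quartiles -150 and 245.5). Against the start of the canonical transcript, which is often downstream of the gene's outermost end, the medians were -138 for PTBP1 and -120 for RUNX1. By that start 71.5% of PTBP1 summits (95% Wilson interval 69.6 to 73.3) and 69.8% of RUNX1 summits (67.9 to 71.6) were upstream. Measured from the gene's outermost 5′ end, the peaks that covered it reached further into the gene than away from it. PTBP1 peaks extended a median of 406.5 bases upstream and 515.5 bases downstream, and RUNX1 peaks 327 and 459 bases. Extents from the canonical transcript start were not computed, so this lean depends on the start that was used.

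**Figure D2:**
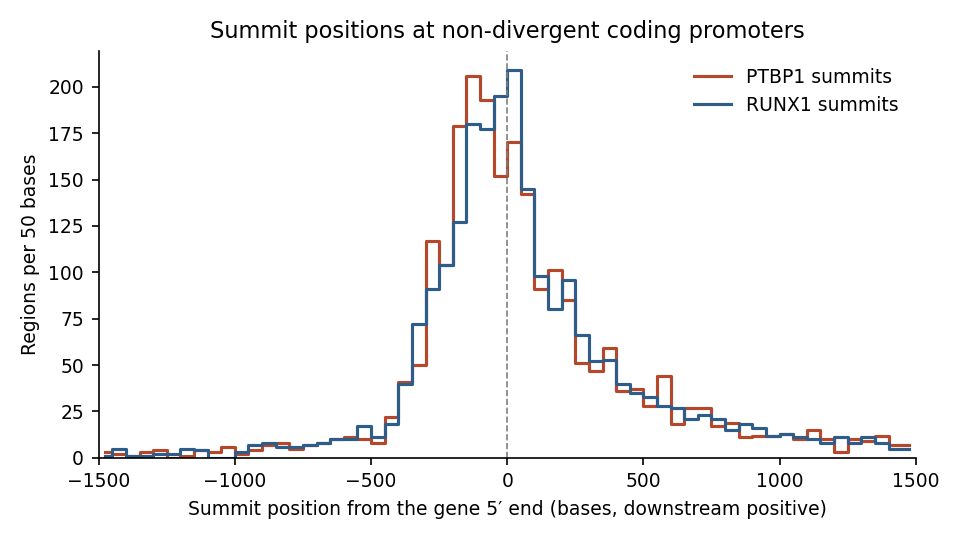
Number of regions (y axis, per 50 bases) by position of the PTBP1 summit (red) and the RUNX1 summit (blue) from the 5′ end of the gene in bases (x axis, downstream positive). Both curves peak within 200 bases of the start; 42 PTBP1 and 47 RUNX1 summits lay outside the plotted range.

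By annotation, 66.0% of PTBP1 summits and 64.5% of RUNX1 summits in members lay outside the canonical coding transcripts. The 5′ UTR held 13.0% and 14.5%, introns 15.9% and 16.3%, of which intron 1 accounted for 12.9% and 13.0%, and coding exons 4.64% and 4.05%. A few summits lay far from the TSS in wide regions, such as SIN3A, where both were 3.9 kb inside the gene's outermost end (3888 and 3909 bases). At HNRNPL the PTBP1 and RUNX1 summits were 1920 and 2184 bases inside it.

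Whether PTBP1 sat on the gene side of RUNX1 was asked because PTBP1 acts on transcripts. The rule used no direction, so this could be tested. The PTBP1 summit was downstream of the RUNX1 summit in 1094 members and upstream in 1099, a downstream share of 49.9% (95% interval 47.8 to 52.0). The two-sided exact sign test gave an adjusted p of 0.932 over 4 tests within the members. The signed distance had a median of 0 and quartiles of -85 and 75 bases.

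Runs of at least 12 pyrimidines, the DNA form of the RNA that PTBP1 binds, were sought within 50 bases of the PTBP1 summit. They lay on the transcript strand in 7.51% of the 2343 members and on the other strand in 8.15%. Of the members with a run on 1 strand only, 171 had it on the transcript strand and 186 on the other (47.9%, 95% interval 42.8 to 53.1, two-sided exact sign test, adjusted p = 0.612). No preference for the transcript strand was detected with these numbers. The windows were not limited to transcribed sequence, and 66.0% of PTBP1 summits in members lay outside the canonical coding transcripts. Many windows may thus be absent from the RNA of the gene, and the result does not bear on PTBP1 sites in RNA.

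The RUNX motif lay more often under RUNX1 summits than under PTBP1 summits of the same regions. At the 1096 members with summits over 100 bases apart, whose windows share no base, 12.04% of RUNX1 summits and 5.93% of PTBP1 summits held it. The motif was at the RUNX1 summit only in 124 regions and at the PTBP1 summit only in 57, so that RUNX1 had it in 68.5% of these (95% interval 61.4 to 74.8, two-sided exact sign test, adjusted p = 1.41e-06). With TGTGGT alone as the motif, the share was 62.1% and did not pass the exact test (adjusted p = 0.0628).

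A RUNX motif lay somewhere in 1511 members, 58.9%. The motif is short and the regions are a median of 1051 bases wide. The share expected for that width was not computed, so the 58.9% is no measure of enrichment. In these 1511 members the nearest motif was closer to the RUNX1 summit in 817 and to the PTBP1 summit in 585, with 109 ties, a share of 58.3% (95% interval 55.7 to 60.8, two-sided exact sign test, adjusted p = 2.51e-09). The median distance was 196.5 bases from the RUNX1 summit and 232.5 bases from the PTBP1 summit. At divergent promoters the nearest motif was closer to RUNX1 in 94 regions and to PTBP1 in 68, and no difference from the members' split was detected (two-sided Fisher's exact test, p = 1).

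**Figure D3:**
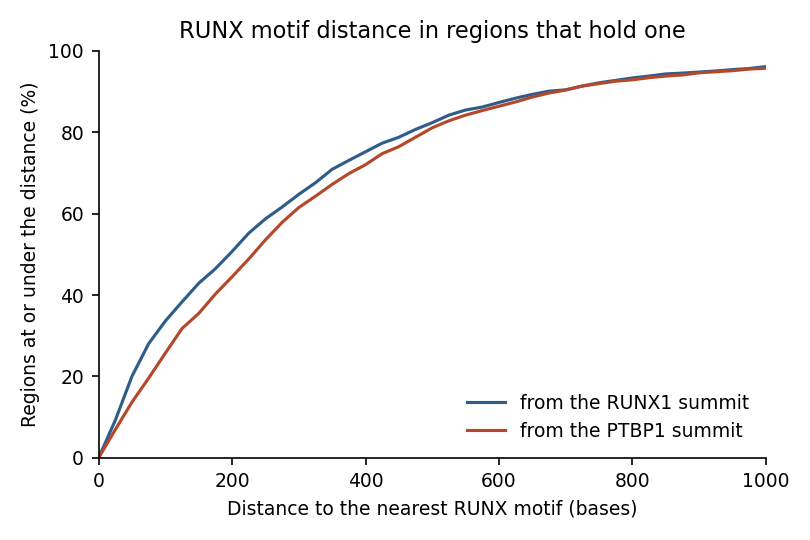
Percentage of the 1511 members with a RUNX motif (y axis) in which the nearest motif was at or under a given distance in bases (x axis) from the RUNX1 summit (blue) or the PTBP1 summit (red). At 100 bases the RUNX1 curve stands at 33.6% and the PTBP1 curve at 25.7%, and the curves meet at long distances.

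Most members had no RUNX motif under either summit. It lay at the RUNX1 summit in 292 of 2565, 11.4% (95% interval 10.2 to 12.7), at the PTBP1 summit in 204, 7.95% (6.97 to 9.06), and at either in 390, 15.2%. Among all 20033 protein-coding promoters, 6.70% held the motif in a window of the same length from 150 to 50 bases upstream of the TSS. That window was fixed and not centred on a summit, so the 6.70% gives no measure of enrichment in members. From 250 bases upstream to 50 downstream of the TSS, 21.6% of genes at members and 19.8% of all protein-coding genes held the motif. For TGTGGT alone the shares were 11.1% and 12.4%. These shares were not tested. Members were also divided at the quartiles of fold enrichment. From the weakest to the strongest group by RUNX1, the share at the RUNX1 summit was 7.96%, 10.8%, 11.1% and 16.3%. From the weakest to the strongest group by PTBP1, the share at the PTBP1 summit was 9.37%, 7.56%, 7.27% and 7.49%.

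RUNX1-only regions at the same kind of promoter had the motif more often. It lay at 20.9% of their RUNX1 summits (95% interval 18.0 to 24.1), a difference of -9.48 points as members minus RUNX1-only. The two-sided exact test of Fisher gave an odds ratio of 0.487 and an adjusted p of 5.11e-08, over 52 comparisons of 13 motifs. The median GC content was 69.3% in both classes. The members' RUNX1 peaks were stronger. With only summits at or above the members' median fold enrichment, a setting chosen after seeing the data, the difference was -24.4 points (exact test, adjusted p = 1.31e-07). That median, 17.3, lies above the upper quartile of the RUNX1-only regions, 14.3, so most of those regions were left out.

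Against PTBP1-only regions the order was the other way. The motif lay at 5.06% of their PTBP1 summits (95% interval 4.06 to 6.30) and at 7.95% of the members' (adjusted p = 0.00505 by the same exact test, odds ratio 1.62). This difference, 2.89 points, did not pass the exact test with TGTGGT alone (0.82 points, adjusted p = 0.567) or among summits at or above the members' median fold enrichment (5.10 points, adjusted p = 0.235). That median lies above the upper quartile of the PTBP1-only regions, 14.5, so most of those regions were left out.

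General promoter elements also differed from the single-protein regions. The CCAAT box lay at 18.0% of the members' RUNX1 summits and 10.7% of the RUNX1-only ones (adjusted p = 8.44e-05 by the exact test, odds ratio 1.83). The GC box lay at 44.3% of the members' PTBP1 summits and 36.9% of the PTBP1-only ones (adjusted p = 8.44e-05 by the exact test, odds ratio 1.36). Neither passed the exact test among summits at or above the members' median fold enrichment, where the differences were 6.77 points (adjusted p = 0.727) and 2.44 points (adjusted p = 1). That limit left out most single-protein regions, so a failure to pass there does not show that a difference was absent. In windows of this length 19.3% of all protein-coding promoters held a CCAAT box and 31.2% a GC box. Those windows were fixed upstream of the TSS and not centred on summits. From 250 bases upstream to 50 downstream of the TSS, 41.5% of genes at members and 35.9% of all held a CCAAT box. For the GC box these shares were 71.4% and 52.4%, with no test. The T form of the RUNX motif was the only other comparison that passed, at 5.03% of the members' RUNX1 summits and 8.94% of the RUNX1-only ones (adjusted p = 0.00362 by the exact test, odds ratio 0.539).

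**Figure D4:**
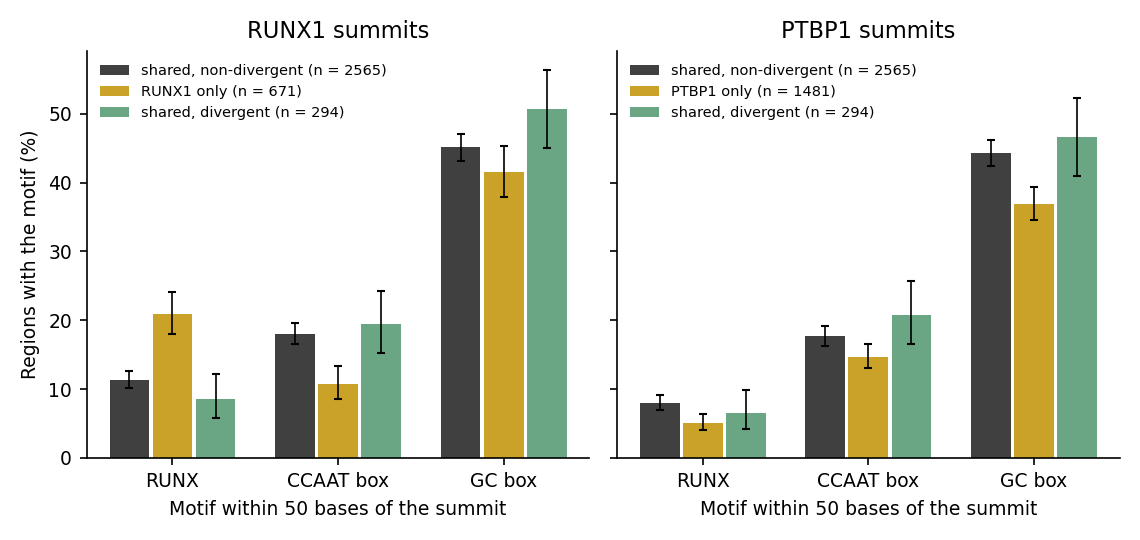
Percentage of regions (y axis) with a RUNX motif, a CCAAT box or a GC box within 50 bases of the RUNX1 summit (left) or the PTBP1 summit (right), with 95% Wilson intervals, for the members (dark), single-protein regions at the same promoter class (yellow) and shared regions at divergent promoters (green). The RUNX motif stands at 11.4% of the members' RUNX1 summits against 20.9% in RUNX1-only regions.

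None of the 26 comparisons with divergent shared regions passed after adjustment, and 1 had an unadjusted p below 0.05 (two-sided Fisher's exact tests). That was the ETS motif CCGGAAGT, bound by a family with GABPA and ELK1 among its members, at 1.75% of the members' RUNX1 summits and 4.08% of those at divergent promoters (exact test, p = 0.0132, adjusted p = 0.105). The RUNX motif lay at 8.50% of divergent RUNX1 summits (95% interval 5.83 to 12.3), and with 294 divergent regions a difference of a few points from the members' 11.4% was not detectable. Motifs for PU.1 (GAGGAAGT), GATA factors (AGATAA) and AP-1 (TGANTCA) were rare at the members' RUNX1 summits, at 0.819%, 1.05% and 1.09%, as were those for NRF1, YY1 and BANP. The E-box CACGTG and the CRE half-site TGACGT lay at 3.31% and 3.27%.

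The genes at the members more often had CpG-rich promoters and several exons than all other protein-coding genes. From 250 bases upstream to 50 downstream of the TSS, the median GC content was 65.3% against 59.3% for the other protein-coding genes, and the observed-to-expected CpG ratio 0.833 against 0.654. A CpG-rich promoter, with a ratio over 0.6 and a GC content over 55%, was found at 74.8% of genes at members and 46.5% of the others. Genes of a single exon made up 1.84% and 6.20%. The canonical transcript had a median of 9 exons against 7, while the median gene length was close, 27813 against 27379.5 bases. Genes with single-protein regions were not compared in this way. Their summits were close in composition to the members' summits. PTBP1-only summits had a median GC content of 67.3% and 9 CpG dinucleotides, against 68.3% and 9 in members. RUNX1-only summits had 69.3% and 10, against 69.3% and 9.

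Removing coding pairs did not remove all opposing transcription units. Of the genes at members, 388 had a long noncoding RNA gene arranged head to head within 1000 bases, 13.4% (95% interval 12.3 to 14.7). The share was 6.68% (6.30 to 7.08) among the 15438 other protein-coding genes outside head-to-head pairs. Among other such genes it was 11.3% (9.84 to 13.1) where the promoter had a PTBP1-only region and 13.9% (11.5 to 16.7) where it had a RUNX1-only region, with intervals that overlap that of the members. A shared region of any kind lay at 35.3% of the 1710 genes in a coding head-to-head pair (33.0 to 37.6) and at 15.9% of the 18323 genes in none (15.4 to 16.4). A region at a paired promoter counts for both genes, so these 2 shares are not on equal terms.

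Gene lists were read against the 14.4% of all protein-coding genes, as counts with no test of a list. The lists hold between 15 and 79 genes, and the genes of a list share properties such as CpG-rich promoters that were not matched here.

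By the main rule, splicing factors had the highest share. Of 34 genes for hnRNP and SR proteins, which bind nascent RNA and steer splice site choice, 20 were at members (58.8%, 95% interval 42.2 to 73.6) and 3 more, HNRNPA1, HNRNPDL and HNRNPK, were at divergent promoters with both peaks. HNRNPL had a PTBP1 fold enrichment of 159 and a RUNX1 fold enrichment of 57.9, and PTBP1 itself 110 and 25.6, with its summits 224 and 225 bases inside the gene. SYNCRIP had 79.1 and 63.9, and HNRNPA2B1 47.7 and 57.9. PTBP3, a paralog of PTBP1, was at a member with 24.998 and 35.3, while PTBP2, the neuronal paralog, had neither peak at its TSS. The lowest values of the list, 2.58 and 3.29 at SRSF2, belonged to a region on a raised background. The list count was 14 with summits at most 200 bases apart, a setting where 11.6% of all protein-coding genes were at members. It was 17 with a −log10 q of at least 15, and also with the TSS base in the region.

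Proteins that work with RUNX1 came next, with 11 of 21 genes at members (52.4%, 95% interval 32.4 to 71.7). The order of this list and the splicing factors depended on the setting. With summits at most 200 bases apart, 9 of the 21 and 14 of the 34 splicing factors were at members. With canonical transcript starts the counts were 12 and 19. CARM1, an arginine methyltransferase, had 122 for PTBP1 and 39.8 for RUNX1. SIN3A, a corepressor scaffold, had 106 and 60.9, PRMT1, which methylates RUNX1, 69.8 and 32.3, and the acetyltransferase EP300 45.9 and 53.4. CBFB, the DNA-binding partner, had the lowest PTBP1 value of the list, 10.5, and 20.3 for RUNX1. HDAC1, HDAC3 and CREBBP had a PTBP1 peak and no RUNX1 peak at the TSS.

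Of 25 hematopoietic transcription factors 7 were at members (28.0%, 95% interval 14.3 to 47.6), and 4 with summits at most 200 bases apart. RUNX3, a paralog of RUNX1, had 13.95 for PTBP1 and 48.9 for RUNX1, with both summits 54 bases upstream and a RUNX motif beneath. LYL1 had 32.6 and 40.6, GFI1, a repressor in myeloid cells, 16.3 and 30.8, and HHEX 11.6 and 21.1. The summits were 679 bases apart at GFI1 and 695 at HHEX. TAL1, IKZF1 and KLF4 had a RUNX1 peak only, IRF8 a PTBP1 peak only, and 14 genes, including RUNX1, SPI1 and CEBPA, had neither at the 5′ end of the gene. MOLM-13 carries a KMT2A fusion. Of 15 genes activated by such fusion proteins 3 were at members (20%, 95% interval 7.05 to 45.2), namely PBX3 (25.6 and 27.1), JMJD1C (12.2 and 36.1) and MYC (12.8 and 12.03), and 1 when the TSS base had to lie in the region.

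Glycolysis, the pathway the study followed, had 10 of 27 genes at members (37.0%, 95% interval 21.5 to 55.8), 1 at a divergent promoter (PGAM1) and 16 with neither peak at the TSS. In pathway order, the glucose transporter SLC2A1 had 33.1 for PTBP1 and 36.1 for RUNX1, GPI 34.3 and 14.3, PFKL 13.4 and 7.52, ALDOA 38.9 and 30.1, ALDOC 15.1 and 9.02, TPI1 21.5 and 10.5, and GAPDH 31.4 and 29.3. Of the enolases, ENO1 had 49.4 and 33.8 and ENO3 34.9 and 31.6. Pyruvate kinase, PKM, had 23.8 and 48.1, with the PTBP1 and RUNX1 summits 610 and 609 bases inside the gene's outermost end. The hexokinases HK1, HK2 and HK3 and the lactate dehydrogenases LDHA and LDHB had neither peak within 1 kb of the 5′ end of the gene, and peaks elsewhere in these genes were not counted. ID1, which the study also followed, was not at a member. The paper reports both proteins at the HK2 and ID1 loci from its signal tracks. Called peaks within 1 kb of a gene's 5′ end are a narrower measure and do not bear on that. The glycolysis count ran from 7 genes, with a −log10 q of at least 15, to 11, with canonical transcript starts. Of 21 genes of the tricarboxylic acid cycle 5 were at members (23.8%, 95% interval 10.6 to 45.1; 3 by canonical transcript starts and 2 with a −log10 q of at least 15), among them OGDH (37.8 and 28.6) and CS (25.6 and 21.8).

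**Figure D5:**
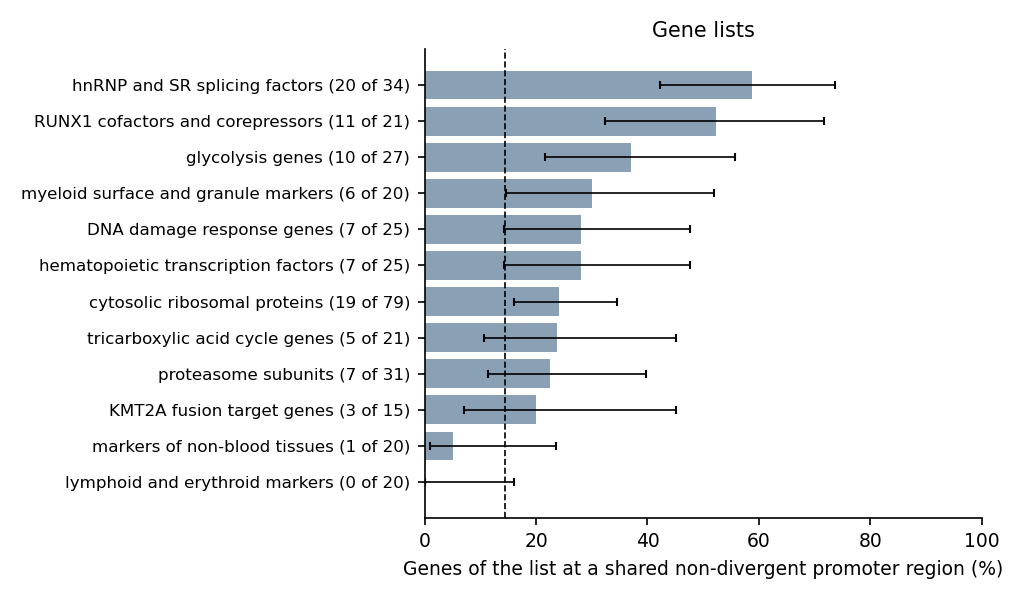
Percentage of the genes of each list at a member (x axis), with 95% Wilson intervals; the dashed line marks the 14.4% of all protein-coding genes. The hnRNP and SR splicing factors stand at 58.8% and the lymphoid and erythroid markers at 0.

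Ribosomal protein genes were split between classes. Of 79, 19 were at members (24.1%, 95% interval 16.0 to 34.5) and 7 at divergent shared promoters. A PTBP1 peak alone was at the TSS of 25, a RUNX1 peak alone at 3, and 25 had neither. Among protein-coding genes outside members and head-to-head pairs, 1489 had a PTBP1-only region at the promoter and 705 a RUNX1-only region. RPS19 had 70.9 for PTBP1 and 21.1 for RUNX1, RPL7 45.3 and 29.3, and RPL3 16.9 and 42.1. Proteasome subunits gave 7 of 31 (22.6%, 95% interval 11.4 to 39.8), among them PSMA5 (23.3 and 36.8) and PSMC5 (25.6 and 28.6). DNA damage response genes gave 7 of 25 (28.0%), with PARP2 at 77.3 and 25.6, the histone variant H2AX at 33.1 and 53.4, and its reader MDC1 at 19.2 and 33.1.

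Cell type markers were used to check the label of the cells. Of 20 myeloid surface and granule markers 6 were at members (30.0%, 95% interval 14.5 to 51.9), with 3 where summits lay at most 200 bases apart and 2 where both peaks had a −log10 q of at least 15, a setting where 11.1% of all protein-coding genes were at members. The neutrophil granule genes ELANE, AZU1 and CTSG had 45.3 and 24.1, 27.3 and 15.8, and 8.72 and 17.3. The integrin gene ITGB2 had 6.98 and 24.8, and CSF2RA and FUT4 completed the group. The PTBP1 and RUNX1 summits were 1691 bases apart at ELANE, 1063 at AZU1 and 312 at ITGB2, beyond the 200-base limit. From the 5′ end of the gene, the RUNX1 summit was at -2231 bases for ELANE and -1151 for AZU1. The defining genes CD33, KIT, CD34, FLT3 and MPO had neither peak at the 5′ end of the gene. Of 20 lymphoid and erythroid markers 0 were at members (95% interval 0 to 16.1), and of 20 markers of other tissues 1 was, MBP, with 10.5 and 13.5, and none with a TSS window of 500 bases or with the TSS base in the region. Peaks are not expression, so these counts describe only where the proteins were called.

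By chromosome, the share of protein-coding genes at members ran from 20.7% on chromosome 17 and 20.1% on chromosome 14 down to 4.66% on the X chromosome, and was 0 of 63 genes on the Y chromosome (95% interval up to 5.75%). The stretch of chromosome 1 from 39 to 44 Mb, dense in peaks, held 27 members at 29 of its 75 coding genes (38.7%), with median fold enrichments of 22.1 for PTBP1 and 18.8 for RUNX1. The background was raised in 11 of these 27 members, against 117 of all 2565, and their median summits held 100 PTBP1 and 60 RUNX1 fragments, against 33 and 23 elsewhere. CITED4, KDM4A, ZMPSTE24 and SLC2A1 lie in it. Its part in the counts was not tested further than by leaving it out of the sequence comparisons, where no call changed.

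At the edges of the rule the medians were as follows, with no test. The 29 members whose nearest coding TSS was over 800 and up to 1000 bases away had median fold enrichments of 14.5 for PTBP1 and 16.5 for RUNX1, and the 25 shared regions just outside, over 1000 and up to 1200 bases away, had 16.9 and 14.3. At the limit on head-to-head pairs, the 15 members with a pair over 1000 and up to 1500 bases apart had 14.5 and 15.0. The 30 excluded regions with a pair over 500 and up to 1000 bases apart had 38.4 and 24.8. A single member rested on an overlap of 50 bases or fewer, with 8.72 and 9.02. A single PTBP1-only region (9.88) and 2 RUNX1-only regions (median 10.9) had a peak of the other protein within 50 bases.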

How the data were processed

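MOLM-13 chromatin was profiled for PTBP1, RUNX1 and H3K27me3, with IgG as the control, and the deposited PTBP1 and RUNX1 peak lists were analysed. Reads were mapped to hg38 by the authors with Bowtie2, filtered for mapping quality over 30 and deduplicated, and MACS3 was run with a q-value limit of 1e-07. The submitters' processing notes also name bedtools 2.30.0. The lists name a target but no assay or replicate, and whether replicates were pooled is not given in the sources used here. The deposited fold enrichment is a ratio of pileup to background with a constant added to both. The deposited −log10 p-value and −log10 q-value rate that pileup, and the deposited score is 10 times the latter without its decimals. Fold enrichment and −log10 p-value gave, for each peak, a whole pileup and a background level, usually 0.720 for PTBP1 and 0.330 for RUNX1. Library totals were not used here. Depth is therefore seen only as fragments at summits.

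The annotation was GENCODE version 44. A TSS is the 5′ end of a gene, and exons are those of the canonical transcript. A region was represented by its strongest summit of each protein. Coordinates are 1-based. Motif shares were compared with two-sided Fisher's exact tests, Benjamini-Hochberg adjusted over 52 comparisons, and summits within members with two-sided exact sign tests, adjusted over 4. Neighbouring regions are not independent, so p-values refer to the regions of these lists, not to separate cultures. The members, lists and motifs were chosen with earlier results of these data known. Genes were named if the study names them (PKM, HK2, ID1, SLC2A1, PTBP1, PTBP2, RUNX1), if at the 10 members of highest fold enrichment per list or the 5 of highest or lowest ratio with both summits on the usual background, or if among up to 4 member genes per list with the highest summed fold enrichment. Further list genes were named to complete a pathway or a class after their values were seen. Procedures were tested on simulated data. Scripts ran under Python 3.11.15 with pysam 0.24.0, scipy 1.17.1, pandas 2.3.3, numpy 2.4.6 and matplotlib 3.10.9. Some genes that this rule picks are not reported here.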

Additional observations from a re-analysis of the deposited data

Results flagged for a closer look

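The background that the fold enrichment and significance of a peak imply lies outside the comparisons above. It was raised, at over 1.5 times its usual level, in 117 members (4.56%), in the PTBP1 list at 113, in the RUNX1 list at 116 and in both at 112. The highest levels were at CAP1, an actin regulator, and NFYC, a subunit of the CCAAT-binding factor, with up to 118.65 and 111.952 fragments of background, and at SPAG4 with 111.952. PTBP1 and RUNX1 fold enrichments were 4.56 and 18.8 at CAP1, 5.52 and 11.1 at NFYC, and 1.94 and 3.68 at SPAG4. SRSF2, PHF12 and PRRC2A were also among them. Without the 117 regions the sequence comparisons kept their direction and their side of the threshold.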

How the results depend on the processing

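The number of members ranged from 1972, with a −log10 q of at least 15, to 2736, with the canonical transcript start as the TSS, over 8 alternatives, and the genes of the 12 lists at members from 76 to 97. The difference from PTBP1-only regions in the RUNX motif at PTBP1 summits was 2.89 points. It did not pass with TGTGGT only (0.82 points). At summits at or above the median fold enrichment of the members it was larger (5.10 points) but did not pass, with fewer regions left. The share of RUNX1-summit-only motifs within members kept its direction but did not pass with TGTGGT only (62.1%). The downstream share of PTBP1 summits turned to 50.7% with a −log10 q of at least 15, and the transcript-strand share of pyrimidine runs to 50.8% with runs of at least 15, neither passing the test. The cause was not tested. Over its alternatives the RUNX motif at the members' RUNX1 summits stayed between -24.4 and -3.91 points as members minus RUNX1-only, and passed in each. Only under the strength limit, which left out most single-protein regions, did the differences in the CCAAT box and the GC box fail to pass. They were 6.77 and 2.44 points there, against 7.28 and 7.35 points over all summits. The other results that answer a comparison kept their direction and side of the threshold, while 8 of the counts of single lists moved by over 1.5 times, as given with those lists. The exclusion of chromosome 1 from 39 to 44 Mb, the strength limit and the restriction to coding genes on 1 strand within 500 bases were chosen after seeing the data. No paired analysis was possible because each list is a single table with no replicate, and for the same reason no replicate could be left out. The number of fragments at weak summits, down to 11 for PTBP1 and 8 for RUNX1, limits which regions were called.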
